A study of Spodoptera frugiperda with 12 samples.

Results

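The mitochondrial genes COX1, COX2 and COX3 encode the 3 core subunits of cytochrome c oxidase, and their transcripts were examined for peaks of N6-methyladenosine (m6A), a methyl mark on adenosine in RNA. RNA fragments of whole fall armyworm (Spodoptera frugiperda) embryos had been captured with an m6A antibody, and each captured sample has its own deposited peak list, 3 from embryos 24 h after the eggs were laid and 3 from embryos 2 h after. Larvae of the laboratory colony were reared on an artificial diet, and the labels set the groups apart by age only, with no genotype or treatment named. Every peak on the mitochondrial sequence NC_027836.1 that overlapped one of the 3 genes by at least 1 base was taken, which gave 57 peaks of 180 on that sequence and of 331440 in all 6 lists. The first, second and last 24 h lists held 8, 10 and 9 of them, and the 2 h lists held 8, 11 and 11. All 57 were on the plus strand.

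Peaks are listed without read counts and their depth is unknown. The 6 uncaptured input samples were not analysed here, so a stretch without a peak can also be one without detectable RNA. In whole embryos, a change in mitochondrial RNA per cell and a change in the number of cells cannot be told apart. The labels do not say whether samples of 1 age were laid by different moths, and p-values therefore cover only the spread between samples, which may be technical.

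Cytochrome c oxidase, complex IV of the respiratory chain, passes electrons from cytochrome c to oxygen and pumps protons across the inner mitochondrial membrane. COX1 is the largest core subunit and holds the site where oxygen is reduced to water, COX2 carries the copper centre that receives electrons from cytochrome c, and COX3 is a core subunit without a metal centre. The remaining subunits are encoded in the nucleus. In insects the mitochondrial genes are transcribed as long RNAs, from which tRNAs are cut out to release most messenger RNAs. An embryo starts with mitochondria supplied by the egg.

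The 3 genes lay in the order COX1, COX2, ATP8, ATP6, COX3 on the plus strand, with 1 tRNA gene between COX1 and COX2, 2 between COX2 and ATP8, and 1 after COX3. COX1 is 1531 bases long, COX2 682 bases and COX3 789 bases. The m6A peaks took a different form in each, with separate blocks on COX1, a single block on COX2 and a run of 3 blocks on COX3. Positions below count from 1 at the first base of each gene, and positions on NC_027836.1 are given where a block is first described.

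**Figure D1:**
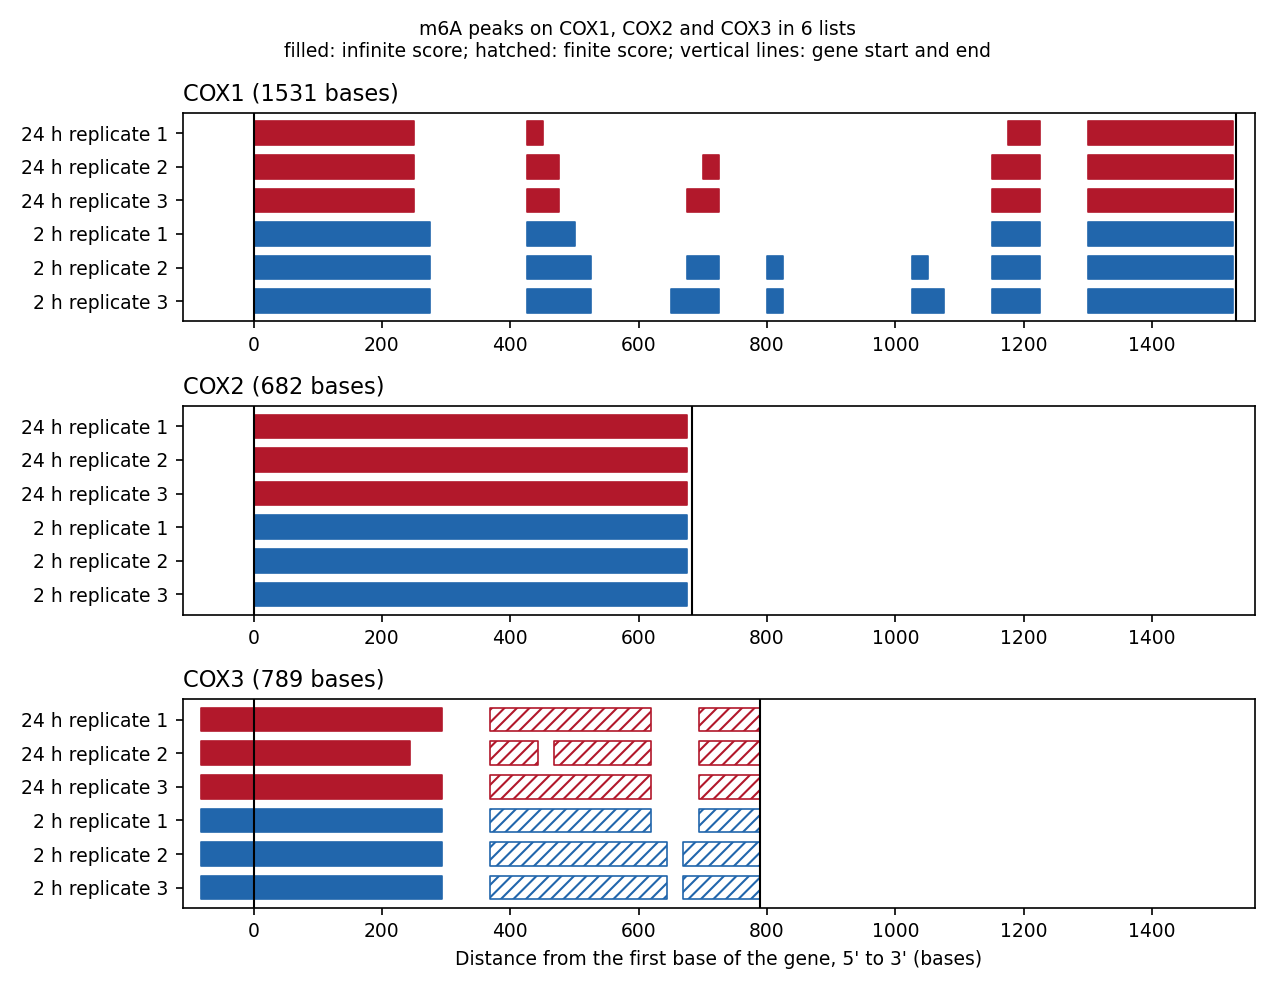
Every m6A peak on COX1, COX2 and COX3, drawn to scale against the distance from the first base of the gene in bases, with 1 row per list (24 h in red, 2 h in blue). COX2 has 1 identical peak in all 6 rows, COX1 has 4 to 7 peaks with wide gaps in its middle, and the finite scores (hatched) are all on COX3.

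On COX1 the m6A peaks gathered at both ends of the gene. The 5' block began on the first base of the gene in all 6 lists (NC_027836.1 from 1461 to 1735 at its widest). It ran to base 250 in all 3 of the 24 h lists and to base 275 in all 3 of the 2 h lists. The 3' block, from base 1301 to base 1525 (2761 to 2985), was the same in all 6 lists, 225 bases long. A shorter block next to it, bases 1151 to 1225 (2611 to 2685), was present in all 6 lists, with 50, 75 and 75 bases in the 24 h lists and 75 bases in each 2 h list. Only the first 24 h list was short there, by a single 25-base step.

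Between these ends the COX1 peaks were short and varied most from list to list. A block that began at base 426 (1886) in all 6 lists covered 25, 50 and 50 bases in the 24 h lists and 75, 100 and 100 bases in the 2 h lists, so that every 24 h list was below every 2 h list. The next block, within bases 651 to 725 (2111 to 2185), covered 0, 25 and 50 bases in the 24 h lists and 0, 50 and 75 bases in the 2 h lists. It was present in 2 of 3 lists at either time and absent from the first list of both times. Peaks at bases 801 to 825 (2261 to 2285) and within bases 1026 to 1075 (2486 to 2535) were present in 0 of 3 lists at 24 h and in 2 of 3 at 2 h, all but the first. The first 2 h list lacked all 3 of these inner peaks, as did the first 24 h list.

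Divided into 3 equal parts, COX1 was covered by peaks to 57.1% ± 2.82 in its 5' part at 24 h, against 69.9% ± 1.24 in 2 h lists (SD, n = 3 each). In its middle part the covered share was 4.90% ± 4.90 at 24 h, against 13.3% ± 11.7 in 2 h lists (SD, n = 3 each), with a list at 0 at either time. In its 3' part it was 57.2% ± 2.83 at 24 h, against 63.7% ± 4.90 in 2 h lists (SD, n = 3 each). The middle part was the least covered of the 3 in every list.

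On COX2 a single m6A peak covered bases 1 to 675 (3060 to 3734) in all 6 lists. The covered share was therefore 99.0% in every list, and the only part without a peak was the last 7 bases of the gene. The peak fills all 27 whole windows of the gene and no mitochondrial peak lay outside a coding gene. Its coverage was therefore near its ceiling, with only those 7 bases left to add. Its fixed edges cannot show whether the signal within it varied. An interval with the same start and end in all 6 lists was uncommon in the whole lists: 821 such intervals were found, 1.41% to 1.60% of the peaks of a list. On the mitochondrial sequence it was less rare, with 6 such intervals among the 27 to 33 peaks of a list. The COX2 peak and the 3' block of COX1 were 2 of these 6, among the 8 to 11 COX peaks of a list, so fixed intervals were not particular to the COX genes. Of peaks spanning 675 bases or more, 29 intervals were the same in all 6 lists, 0.741% to 0.931% of the peaks of that span in a list.

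On COX3 the m6A peaks formed 3 blocks. The first began 82 bases before the gene, inside ATP6, which encodes a subunit of the ATP synthase and overlaps COX3 by 1 base. It ran from 4629 to 5003, and so to base 293 of COX3, in 5 of 6 lists, and ended 50 bases earlier, at base 243, in the second 24 h list. Since it spans the junction, it cannot be assigned to one of these genes alone. The second block started at base 369 (5079) in all 6 lists. It covered 250, 225 and 250 bases in the 24 h lists and 250, 275 and 275 bases in the 2 h lists. In the second 24 h list it was split in 2 by a single uncovered 25-base step, which makes 4 peaks on COX3 in that list against 3 in each of the others. The last block ended on the last base of the gene (5499) in all 6 lists, and covered 96 bases in every 24 h list and 96, 121 and 121 bases in the 2 h lists. The first 2 h list had the same COX3 peaks as the first and last 24 h lists.

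Stretches free of m6A peaks in all 6 lists lay mostly in COX1. They added up to 706 bases of COX1 (46.1% of the gene), 7 bases of COX2 (1.03%) and 100 bases of COX3 (12.7%). Inside COX1 there were 6 such gaps of 75 to 200 bases. Read 5' to 3' they covered bases 276 to 425, 526 to 650, 726 to 800, 826 to 1025, 1076 to 1150 and 1226 to 1300. The longest, 200 bases, was the one from base 826 (2286 to 2485). COX3 had gaps of 75 bases, from base 294 to 368, and of 25 bases, from base 644 to 668. The opposite class, bases under a peak in all 6 lists, made up 35.9% of COX1, 99.0% of COX2 and 71.5% of COX3, and the bases that changed between lists made up 18.0%, 0% and 15.8% of these genes.

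Peak edges lay on a fixed grid, which sets how finely these blocks can be placed. All 32 peaks on COX1 and all 6 on COX2 started and ended a whole number of 25-base windows from the first base of their own gene. None of the 19 starts on COX3 was on a grid counted from the start of COX3, and all 19 were on one counted from the start of ATP8, the first of the 3 overlapping genes ATP8, ATP6 and COX3. The last 6 bases of COX1 and the last 7 of COX2, which follow the last whole window, were under no peak in any list, while the last 21 bases of the ATP8 to COX3 unit, also after its last whole window, were under a peak in all 6 lists. The first base of the gene was under a peak in all 6 lists in COX1, COX2 and COX3.

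Edges were shared unevenly along the genes. The 57 peaks used 35 distinct edges, of which 10 were present in all 6 lists and 10 in a single list. Of 16 starts 6 were common to all lists, and of 19 ends 4 were. On COX1, 3 of 10 starts and 2 of 12 ends were present in all 6 lists. The 5' block of COX1 was the only one whose end separated the times completely at a single position each, base 250 in the 24 h lists and base 275 in the 2 h lists, a difference of 1 window.

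The score of a peak is the authors' own value, with a scale that the lists do not state, and was read only as a rank within its list. Infinite scores were given to 44 of the 57 peaks (77.2%), against 0.930% to 1.50% of all peaks of a list. Among the 123 mitochondrial peaks that touched no COX gene 42 were infinite (34.1%), and in each of the 6 lists the COX share was the higher one, by 32.9 to 59.1 percentage points. All 32 peaks on COX1 and all 6 on COX2 were infinite, so the scores do not rank them. On COX3 only 6 of 19 peaks were infinite, all of them in the block that begins inside ATP6. The high COX share was therefore not a trait of each of the 3 genes. Short peaks on COX1 were infinite as well: of the 19 COX peaks of at most 75 bases 18 were infinite, all of them on COX1. Of all peaks of that span in a list 0.269% to 0.427% were infinite. Other mitochondrial peaks of that span were not counted apart. The finite scores of the whole lists reached 1014.68 to 1015.45, and the highest finite score on the COX genes was 33.8. Among the mitochondrial peaks that touched no COX gene, the median finite score was 71.9 to 145.3 in a list.

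The 13 finite scores were all on COX3, downstream of the block that spans its start. The peak at the gene end had scores of 32.3, 32.7 and 33.5 in the 24 h lists and 32.2, 33.8 and 31.0 in the 2 h lists. The highest-scoring peak of the middle block had 29.5, 28.0 and 28.8 in the 24 h lists and 26.4, 29.5 and 26.1 in the 2 h lists. The end peak ranked above the middle one in all 6 lists. Within their lists the end and middle peaks stood above 52.2% to 63.8% of all peaks, apart from the short 75-base piece in the second 24 h list, whose score of 14.3 exceeded 32.6% of that list. COX3 thus carried peaks at the top of the list over its start and peaks of middling rank over the rest.

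**Figure D2:**
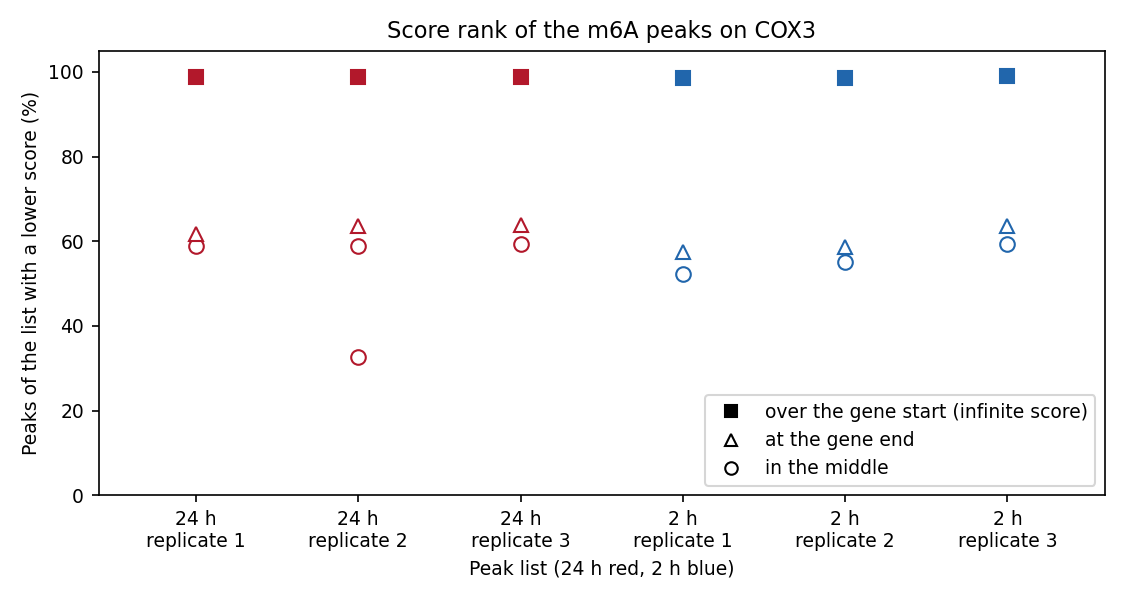
Share of a list's peaks with a lower score (%), for each m6A peak on COX3 in the 3 lists of 24 h (red) and the 3 of 2 h (blue). The peak over the gene start is infinite in every list, and the remaining peaks lie between 52.2% and 63.8%, except 1 at 32.6% in the second 24 h list.

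The design compares the later with the earlier embryos, and on the COX genes the 24 h lists covered no more than the 2 h lists. COX1 was covered to 35.9%, 40.8% and 42.5% in the 24 h lists and to 42.5%, 50.6% and 53.9% in the 2 h lists. The highest 24 h list and the lowest 2 h list were equal at 650 bases, so the groups touched. The difference in means was -9.25 percentage points (exact two-sided permutation p = 0.2, adjusted p = 0.65 over the 13 mitochondrial coding genes). COX3 was covered to 81.0%, 71.5% and 81.0% in the 24 h lists and to 81.0%, 87.3% and 87.3% in the 2 h lists, a difference of -7.39 points (exact two-sided permutation p = 0.3, adjusted p = 0.65). Without the second 24 h list, the one with the split block, this difference was -4.22 points. COX2 did not differ by a base. None of the 3 genes had every list of one time below every list of the other, while among all 13 mitochondrial coding genes 15.4% (2 genes, ND3 and ND5) had every 24 h list below every 2 h list and 0% had the reverse. A test of 3 lists against 3 cannot give a p below 0.1.

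Over the joint length of the 3 genes, m6A peaks covered 62.1%, 62.1% and 65.4% in the 24 h lists and 65.4%, 71.3% and 72.9% in the 2 h lists. The means were 63.2% ± 1.92 at 24 h, against 69.9% ± 3.94 in 2 h lists (SD, n = 3 each), a difference of -6.66 points (exact two-sided permutation p = 0.2). The groups touched at 65.4%, and every 24 h list was at or below every 2 h list. The number of peaks averaged 9.0 ± 1.0 at 24 h, against 10.0 ± 1.73 in 2 h lists (SD, n = 3 lists each; p = 0.6 in an exact two-sided permutation test). The whole lists differed in the other direction, with 56679 to 58161 peaks in a 24 h list and 51157 to 55116 in a 2 h list. Lower coverage at 24 h was not particular to the COX genes. The other 10 mitochondrial coding genes together were covered to 80.4% ± 0.866 at 24 h, against 84.3% ± 1.44 in 2 h lists (SD, n = 3 each). Their difference was -3.81 points (exact two-sided permutation p = 0.1). These groups did not touch, with 81.2% in the highest 24 h list and 82.6% in the lowest 2 h list. The median rank of the COX peaks was 98.8 ± 0.0215 at 24 h, against 98.7 ± 0.310 in 2 h lists (percentile within the list, SD, n = 3 lists; p = 0.6 in an exact two-sided permutation test). This is the rank of an infinite score in each list, fixed by how many infinite scores the whole list holds. The test therefore cannot compare COX scores between the times.

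Window by window, differences between the times ran one way. The 3 genes hold 122 windows, of which 72 were under a peak in all 6 lists, 34 in none and 16 in some. Of these 16, 15 had more 2 h than 24 h lists with a peak, 1 had equal numbers and 0 had more 24 h lists. Windows covered at 2 h in 3 of 3 lists and at 24 h in 0 of 3 numbered 2 (1.64%), against 1.10% of the 455 windows of all 13 coding genes. Both were on COX1, at bases 251 to 275 and 476 to 500. In the 2 h lists the first was the last window of its block, and the second was the last window in 1 list and the last but one in the other 2. The reverse, 3 of 3 lists at 24 h and 0 of 3 at 2 h, was met by 0 windows here and by 0 (0%) over all 13 genes. A peak in any 2 h list and no 24 h list was found in 9 windows (7.38%, against 5.27% over the 13 genes), and a peak in any 24 h list and no 2 h list in 0 (against 0.659%). The COX windows thus leaned as those of the mitochondrial coding genes in general, where 49 windows had more 2 h lists and 5 more 24 h lists. Neighbouring windows of a block are not independent, and no single window was tested, since 3 lists against 3 cannot give a two-sided p below 0.1.

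**Figure D3:**
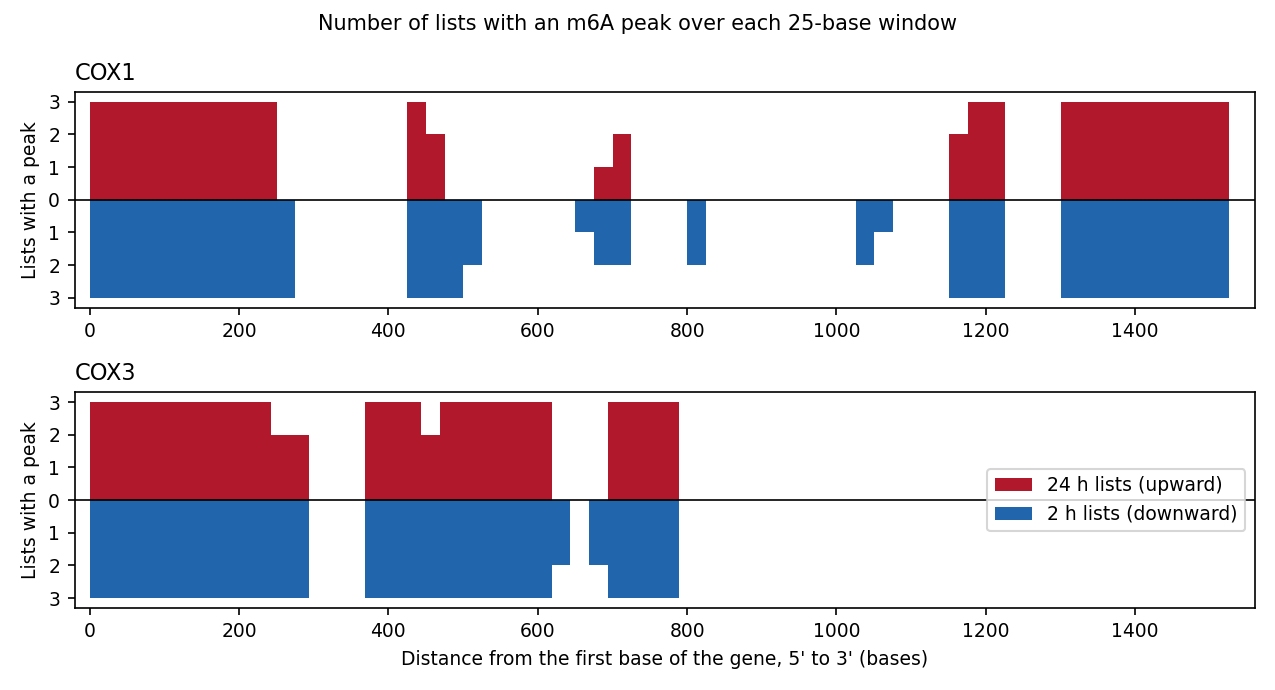
Number of lists with an m6A peak over each 25-base window of COX1 and COX3, 24 h lists upward in red and 2 h lists downward in blue, against the distance from the first base of the gene in bases. No window has a longer red bar than blue bar, and 15 windows have a longer blue one.

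Compared list by list, the bases of COX1, COX2 and COX3 under 24 h peaks lay wholly within those of a 2 h list in 7 of 9 pairs, and at most 50 bases lay outside. Both exceptions paired the first 2 h list with a 24 h list that carried the inner peak around base 700. In the other direction, 50 to 325 bases of a 2 h list were outside the 24 h list in all 9 pairs. Without the first 2 h list, which lacked the inner COX1 peaks and had the shorter COX3 blocks, the windows covered in every 2 h list and in no 24 h list numbered 7 in place of 2. That setting asks for fewer 2 h lists and was not counted over the 13 genes. The comparison by pairs was not made for the other 10 genes either. Neither result therefore sets the COX genes apart.

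Against the other 10 mitochondrial coding genes, the COX genes as a group had less of their length under m6A peaks, while COX2 and COX3 without COX1 had more. The share was lower than in the other 10 genes by 17.4, 18.6 and 15.7 points in the 24 h lists and by 17.2, 13.8 and 12.2 points in the 2 h lists. The mean difference was -15.8 ± 2.41 points (SD, n = 6; exact two-sided sign-flip test, p = 0.03125, the lowest value open to 6 lists; lower in 6 of 6 lists). COX1 was the least covered of the 13 genes in all 6 lists. COX2 and COX3 together were covered more than the other 10 genes in all 6 lists, by 3.52 to 9.84 points. This did not hold for each of them: COX2 was at 99.0% in every list. COX3 alone averaged 81.5% over the 6 lists, against 82.4% in the other 10 genes, and was above them in some lists and below them in others. Within the group, COX1 stood 45.2 ± 5.02 points below COX2 and COX3 together (SD, n = 6 lists, exact two-sided sign-flip p = 0.03125, lower in 6 of 6 lists). The gap between the COX genes and the other 10 was not separated by time, at -17.2 ± 1.45 points at 24 h, against -14.4 ± 2.53 points in 2 h lists (SD, n = 3 lists each), a difference of -2.85 points (exact two-sided permutation p = 0.2), or -1.76 points without the last 2 h list.

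**Figure D4:**
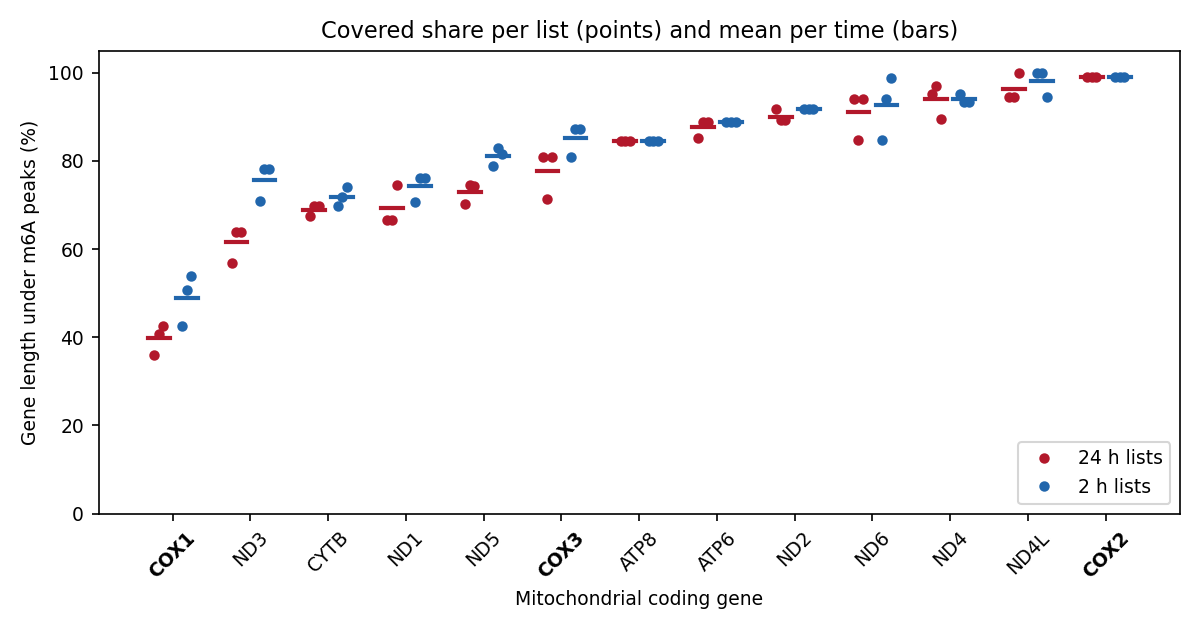
Share of gene length under m6A peaks (%) for the 13 mitochondrial coding genes, ordered by their mean over 6 lists, with 1 point per list and a bar for the mean of each time (24 h in red left of 2 h in blue). COX1 is lowest in every list, COX2 is at 99.0% in every list, and COX3 lies between them.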

How the data were processed

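Per the labels' protocols, embryo RNA was enriched on oligo(dT) beads, fragmented and split into an m6A capture and an input, and libraries were sequenced on an Illumina NovaSeq. The submitters' processing notes name HISAT2 2.1.0, Bowtie2 2.2.5, fastp 0.20.0 and HOMER without roles. Not given in the sources used here are the peak caller, its threshold and the genome build. The deposited files are 1 peak list per captured sample, unpooled, with sequence, start, end, name, score and strand. The score in the deposited lists has no stated scale. Peak starts were counted from 1.

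Gene names, lengths and positions came from the mitochondrial entries of a RefSeq table (assembly AGI-APGP_CSIRO_Sfru_2.0). All first peaks of COX1 and COX2 began on the first base of the gene and all last peaks of COX3 ended on its last base, so these entries were used with the positions in the lists. No sequence of this genome was used here.

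The share of each gene's length under peaks was computed per list, and 25-base windows were laid from the first base of each gene or of each run of overlapping genes. A window over overlapping genes counts once for each. The times were compared with exact permutation tests of 3 lists against 3, and genes with exact sign-flip tests over 6 lists, at a threshold of 0.05, with Benjamini-Hochberg adjustment over 13 genes. The routines were tested on simulated data. All 3 genes are named with their values, and the other 10 coding genes form the comparison list. The members and lists were chosen with earlier results of these data known. The description of gene parts, edges, gaps, grid and scores has no test. Alternatives were the stronger 50% of each list, lists of equal length (51157 peaks), peak midpoints inside the gene, no peaks of 25 bases or less, each list left out, a replicate block and presence in 2 of 3 lists. Values were computed in Python 3.11.15 with scipy 1.17.1, numpy 2.4.6, pandas 2.3.3 and, for plots, matplotlib 3.10.9.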

Additional observations from a re-analysis of the deposited data

How the results depend on the processing

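The stronger 50% of each list, lists of equal length, midpoints inside the gene and no peaks of 25 bases or less kept the direction of all 12 results. The exact two-sided sign-flip p-values stayed at 0.03125 in these settings. Time tests of 3 lists against 3 cannot give a p below 0.1, and counts and lengths had no test. Those results could therefore not change their side of the threshold. Lists of equal length and midpoints left every time difference unchanged, so these settings say little about it. Leaving out each list in turn gave -16.5 to -15.3 points for the COX genes against the other 10, and -46.5 to -43.6 points for COX1 against COX2 and COX3, each with an exact two-sided sign-flip p of 0.0625, the smallest that 5 lists can give. The 2 h-only windows then numbered 7 without the first 2 h list and 2 without any other list. With presence in at least 2 of 3 lists they numbered 7, against 2. No total over the 13 genes was made for either setting. Windows of ND2, ND3, ND5, CYTB and ND1 met the rule of 2 of 3 lists too, so it was not particular to the COX genes. The length under no peak in any list was 813 to 863 bases. The time differences stayed between -12.5 and -6.80 points for COX1, -9.51 and -4.22 for COX3, -8.88 and -5.14 for the joint length, and -4.24 and -1.76 for the COX genes against the other 10, and that in the number of peaks between -2.0 and -0.5. With the replicate block the joint difference of -6.66 points had an exact sign-flip p of 0.25, the smallest that 3 pairs can give, so no call could change. The replicate numbers gave no clear pairing of the samples: deviations over the 13 genes correlated at 0.0402, -0.403 and 0.322, and 1 of 6 samples correlated best with its own number. So few values cannot show that a pairing is absent. On COX1 the first list was the least covered of its time at both times, at 35.9% and 42.5%. Depth is unknown, so short or absent peaks cannot be told from thin coverage.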

Other observations

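On the mitochondrial sequence 0 bases under a peak lay outside the coding genes in any of the 6 lists, and 0 lay on the rRNA genes, so the tRNA genes on either side of COX2 and after COX3 carried none. The sources used here do not say whether peaks were searched for outside coding genes, so this does not show that such RNA lacked m6A. Of the 9 plus-strand coding genes, the first base was under a peak in all 6 lists in COX1, COX2, ATP6, COX3 and CYTB. The last base was under a peak in all 6 lists in ATP8, ATP6 and COX3 and in 0 lists in the remaining 6.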
